A study of Arabidopsis thaliana with 20 samples.

Results

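The nuclear photosynthesis genes of *Arabidopsis thaliana* were examined for small RNAs in mutants of the cytosolic RNA exosome route. They are 41 genes of 27415 in a table of 21 and 22 nt small RNA counts over 20 flower bud libraries. They were chosen by gene product, at a time when earlier results of these data were known. Their products are light-harvesting antenna proteins, nuclear-encoded subunits of photosystems I and II, the Rubisco small subunit and Rubisco activase. The question was whether genes known for abundant mRNAs give more small RNAs when the exosome route fails. mRNA itself was not measured in these libraries.

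Wild-type Col-0 had 3 libraries. *cer7*, mutated in the exosome core subunit RRP45B (*AT3G60500*), had 3 libraries of *cer7-gabi* and 2 of *cer7-sail*. *rst1*, mutated in the ARM-repeat protein RST1 (*AT3G27670*), had 3 each of the insertion alleles *rst1-2* and *rst1-3*. *ripr*, mutated in the RST1 interacting protein RIPR (*AT5G44150*), had 3 each of *riprT* and *riprC*, in which Cas9 editing inserted a single T or C at one and the same position. All plants were Col-0, each library pooled closed flower buds of 4 plants, and the replicates of a genotype were raised at separate times in separate chambers. Plants had 3 weeks of 12 h light and 3 weeks of 16 h light. The libraries carry replicate numbers from 1 to 3 in the labels, which do not say that a number marks a date or chamber shared between genotypes. A second numbering in the sample descriptions has 4 in place of 3, alike in every genotype, and is otherwise the same. *cer7-sail* has no library numbered 2.

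The cytosolic exosome degrades mRNA from the 3′ end. An mRNA that escapes decay can become a template for RNA-dependent RNA polymerase, and Dicer-like enzymes then cut the double strand into 21 and 22 nt siRNAs that silence the gene. Light-harvesting proteins bind chlorophyll and pass excitation energy to the photosystems, while Rubisco fixes carbon dioxide with the help of its activase. Their nuclear genes are induced by light, and several lie in families of near-identical copies.

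Near-identical copies limit which gene a short read can be assigned to. *CAB1* (*AT1G29930*), *CAB2* (*AT1G29920*) and *CAB3* (*AT1G29910*), genes of the major antenna protein of photosystem II, lie together on chromosome 1 and have coding sequences of 804 bases that are identical at 96.1% of positions between *CAB1* and *CAB2* and at 96.4% between *CAB1* and *CAB3*. The stretch of 120 coding bases shown here, from coding position 145 to 264, holds 11 of the 47 positions at which the 3 differ, and capitals mark those positions. It is shown because only 21 nt reads that cover a capital can tell the copies apart. The sequences are from RefSeq, build TAIR10.1, at chr1:10478215-10478334 on the plus strand, chr1:10475629-10475748 on the minus strand and chr1:10472983-10473102 on the minus strand.
*CAB1*: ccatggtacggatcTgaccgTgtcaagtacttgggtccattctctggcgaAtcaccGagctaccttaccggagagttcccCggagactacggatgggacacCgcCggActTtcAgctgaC
*CAB2*: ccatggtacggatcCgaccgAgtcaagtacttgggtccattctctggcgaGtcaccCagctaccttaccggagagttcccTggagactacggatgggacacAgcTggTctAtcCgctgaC
*CAB3*: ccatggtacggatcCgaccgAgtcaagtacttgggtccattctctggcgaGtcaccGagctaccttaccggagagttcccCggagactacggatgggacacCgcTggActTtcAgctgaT
*LHCB2.1* (*AT2G05100*) and *LHCB2.2* (*AT2G05070*), a second pair of major antenna genes, were identical at 96.6% of 798 coding bases. Their first 120 coding bases, at chr2:1824212-1824331 and chr2:1800210-1800329 on the minus strand, hold 13 of the 27 positions that differ, again in capitals, and the longest identical run was 152 bases.
*LHCB2.1*: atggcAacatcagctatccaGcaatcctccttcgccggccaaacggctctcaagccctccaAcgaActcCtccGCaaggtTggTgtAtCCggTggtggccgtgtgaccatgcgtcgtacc
*LHCB2.2*: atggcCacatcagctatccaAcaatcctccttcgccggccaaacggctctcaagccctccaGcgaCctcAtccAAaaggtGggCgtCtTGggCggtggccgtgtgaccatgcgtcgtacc
Of all 21 nt windows in the exons, 55.6% in *CAB1*, 57.1% in *LHCB2.1* and 52% in *LHCB2.2* occurred once in the genome, against 99.9% in *LHCB6* (*AT1G15820*) and 99.9% in *PSBW* (*AT2G30570*). Values are therefore uncertain as to the copy for *CAB1* to *CAB3*, *LHCB1.5*, *LHCB2.1*, *LHCB2.2* and *RBCS2B*, each with 58.4% or less of such windows, and to a lesser degree for *LHCB1.4*, *LHCA2* and *RBCS3B*.

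In the wild type the photosynthesis genes were among the genes with many small RNA counts. Counts were scaled to a common total per library over the genes tested (written as CPM), with TMM factors that correct for differences in composition between libraries. All 41 genes lay above the median of all genes in mean wild-type CPM and 38 lay above the 90th percentile. Their median was 66.0 CPM (11.9 to 295), against 2.94 CPM over all genes in the table. The list does not hold every gene of these classes. A further 10 photosystem and antenna genes outside it had a wild-type median of 13.9 CPM (0 to 56.3). The high levels thus describe the genes listed, not all genes of the photosystems. Of the 41 genes, 33 passed the filter on low counts, as did 2916 genes of the whole table, whose wild-type median was 45.6 CPM. The 8 that did not pass were *LHCB1.4*, *LHCB2.3*, *LHCB4.3*, *RBCS1B*, *PSAD2*, *PSAE1*, *PSAH1* and *PSAH2*, with 0 to 22 counts per library. Per kilobase of exon, *RBCS1A* stood highest in the wild type with 232 ± 28.1 CPM (SD, n = 3), followed by *LHCA2* with 203 ± 5.49, *LHCB1.5* with 193 ± 50.2 and *CAB1* with 182 ± 25.3 CPM per kilobase. The libraries of *LHCA2*, *LHCB1.5* and *CAB1* overlapped. *RBCS1A* overlapped with *LHCB1.5* and barely with *CAB1*, while its lowest library was above the highest *LHCA2* library. The exon length was not corrected for windows that occur more than once. Windows that occur once made up 90.7% in *RBCS1A*, 71.7% in *LHCA2*, 58.4% in *LHCB1.5* and 55.6% in *CAB1*, so the order is uncertain.

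The total per library lay between 203245 and 230727 counts for Col-0, between 305475 and 522464 for *cer7*, between 192747 and 296842 for *rst1* and between 193616 and 371040 for *ripr*. *CER3* (*AT5G57800*), a wax biosynthesis gene known for its silencing in *cer7*, ranged between 23 and 29 counts in the wild type and between 1196 and 12893 in the mutants. The mutated genes had few counts. *RST1* had 13, 23 and 9 counts in the *rst1-3* libraries and 0 to 5 in every other library, *rst1-2* included. Counts of *RRP45B* and *RIPR* did not set their mutants apart and do not check those labels. The 6 flower markers *AP1*, *AP3*, *PI*, *AG*, *SEP3* and *A9* had 16 to 78 counts together per library, with 0 to 2 for *A9*, and small RNA counts do not show whether their mRNAs were present.

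In *cer7*, 2 of the 33 tested photosynthesis genes rose, *LHCB6* and *PSBW*, and none fell. A gene was called where edgeR's adjusted p was below 0.01 and the log2 fold change beyond 1 in either direction. The share of called genes was 6.06%, while 17.4% of all 2916 tested genes rose and 2.19% fell in *cer7*. In *rst1*, *CAB1* and *LHCB6* rose, again 2 of 33, where 9.95% of all tested genes rose and 0.652% fell. In *ripr*, 0 of 33 genes were called, where 9.91% of all tested genes rose and 0.72% fell. At an unadjusted p below 0.05, 5 photosynthesis genes were higher in *cer7*, 4 in *rst1* and 2 in *ripr*, and 0, 0 and 4 were lower, where 46.2%, 33.2% and 32.3% of all tested genes passed in either direction. DESeq2 called 2 higher in *cer7*, 0 in *rst1* and 0 in *ripr*, and 0 lower in each. The share of all genes that DESeq2 called is not given here, so its counts stand without a background. The 3 comparisons share the 3 wild-type libraries. In bulk buds, fewer cells that express a gene and fewer small RNAs per cell cannot be told apart.

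**Figure D1:**
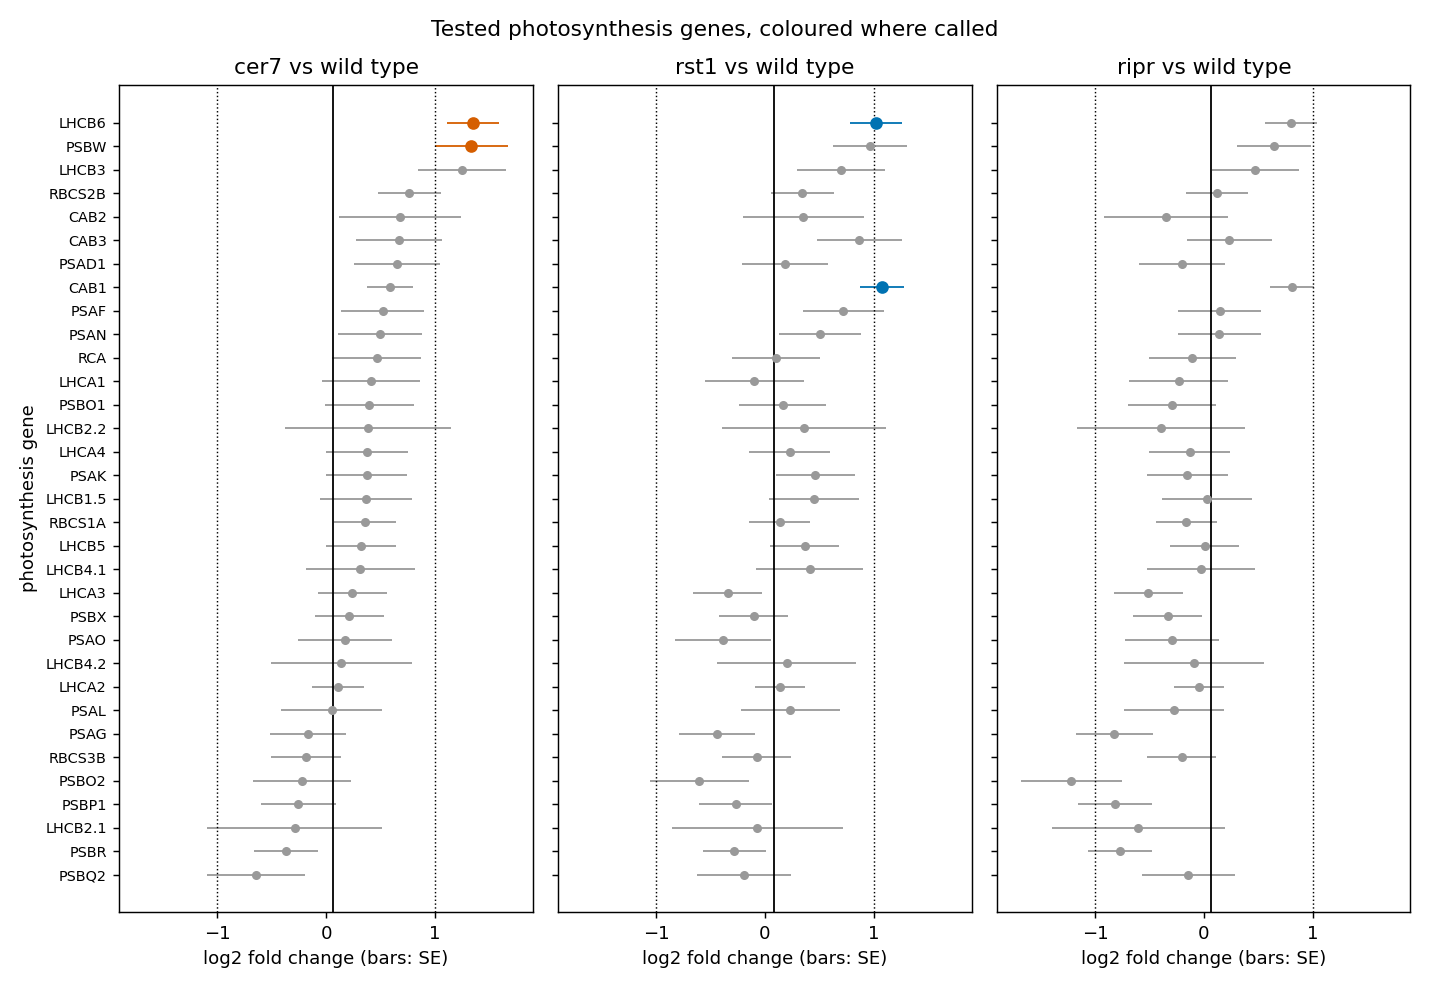
Log2 fold change of small RNA CPM against the wild type (x axis, bars are standard errors) for the 33 tested photosynthesis genes (y axis), in *cer7*, *rst1* and *ripr*. Coloured points are called genes, the solid line is the median of all 2916 tested genes and dotted lines mark log2 changes of 1 and -1. *LHCB6* and *PSBW* are coloured in *cer7*, *CAB1* and *LHCB6* in *rst1*, and no gene in *ripr*.

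The median log2 fold change of the 33 genes was 0.37 in *cer7*, 0.20 in *rst1* and -0.15 in *ripr*, beside 0.07, 0.09 and 0.07 over all tested genes. Of the 33 genes, 26, 22 and 10 were above 0, respectively, beside 51.85%, 53.98% and 53.5% of all tested genes. Scaling by library size alone moved the median of all genes in *cer7* to -0.23 and that of the photosynthesis genes to 0.09, with 20 of 33 above 0. *cer7-sail* replicate 1 and *rst1-3* replicate 1 stood apart from their groups with high values. Without them, an alternative chosen after seeing the data, *cer7* had a median of 0.0012, *rst1* of -0.047 and *ripr* of -0.16. Over all tested genes the medians were then -0.066, 0.019 and 0.034. The counts of called photosynthesis genes were 2, 1 and 0, and the share over all tested genes is not given for this alternative.

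*LHCB6* encodes CP24, a minor antenna protein that links the major antenna to photosystem II. Its wild-type libraries had 71.4, 90.9 and 70.5 CPM. The *cer7-gabi* libraries had 204.1, 214.9 and 188.1 CPM and the *cer7-sail* libraries 185.1 and 199.9 CPM. All 5 *cer7* libraries were above all wild-type libraries, by more than the spread within either group. *rst1* ranged from 110.3 over a median of 158 to 226.0 CPM and *ripr* from 95.4 over 140.5 to 165.0 CPM. These 12 libraries too were above the wild type, in which the gene had 14 to 19 counts. The log2 fold change was 1.35 in *cer7* (SE 0.241, adjusted p = 0.000108, edgeR), 1.02 in *rst1* (SE 0.239, adjusted p = 0.00303) and 0.80 in *ripr* (SE 0.238, adjusted p = 0.0177), the last not called. The *cer7* call was kept under each normalization and filter and without each library, and it ended under a test against a log2 change of 1 (edgeR's glmTreat, adjusted p = 0.138). The *rst1* call, just past the threshold, ended with DESeq2 (0.94, adjusted p = 0.0111), without the filter (adjusted p = 0.149), with only the groups compared (1.07, adjusted p = 0.0128), with glmTreat (adjusted p = 1), in libraries numbered 2 and 3 only (0.95, adjusted p = 0.0275) and without any one of 9 libraries, by its size or its p. The gene, at chr1:5446462-5447880 on the minus strand, is overlapped on the opposite strand by *AT1G05207* over 358 bases and by *AT1G15810* over 103 bases. Whether counting used strand is not given in the sources used here, so reads of these genes cannot be told apart from its own.

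*PSBW* encodes a small subunit of photosystem II. Wild-type libraries had 56.1, 43.1 and 26.4 CPM, from 11, 9 and 6 counts. *cer7-gabi* libraries had 94.9, 99.8 and 109.1 CPM and *cer7-sail* libraries 88.5 and 136.1 CPM, so that every *cer7* library was above the wild type. *rst1* ranged from 63.6 over 76.2 to 115.1 CPM, also without overlap, and *ripr* from 25.1 over 74.3 to 83.9 CPM, overlapping the wild type. The log2 fold change was 1.34 in *cer7* (SE 0.337, adjusted p = 0.00312, edgeR), 0.96 in *rst1* (SE 0.339, adjusted p = 0.0428) and 0.64 in *ripr* (SE 0.341, adjusted p = 0.195). Its *cer7* call was lost without the wild-type replicate 2 (log2 fold change 1.34, adjusted p = 0.0185), the wild-type replicate 3 (0.98, adjusted p = 0.0521) or *cer7-sail* replicate 3 (adjusted p = 0.0156). It was also lost with library size alone (adjusted p = 0.0154), without the filter (adjusted p = 0.0231) and with glmTreat (adjusted p = 0.287). No annotated gene overlaps *PSBW*, at chr2:13019028-13020311 on the minus strand.

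*CAB1*, a gene of the major trimeric antenna (chr1:10477885-10479114, plus strand), had the most small RNA counts of the photosynthesis genes over all libraries, 378 CPM on average. Wild-type libraries had 260.2, 205.7 and 207.1 CPM. *rst1* ranged from 355.5 over 471.2 to 554.4 CPM and *ripr* from 355.5 over 392.6 to 461.5 CPM, so all 12 libraries of both mutants were above the wild type. The 5 *cer7* libraries had 238.6, 345.3, 261.8, 426.5 and 421.1 CPM, the lowest of them below the highest wild-type library. The log2 fold change was 1.08 in *rst1* (SE 0.206, adjusted p = 0.000427, edgeR), 0.81 in *ripr* (SE 0.204, adjusted p = 0.00521) and 0.59 in *cer7* (SE 0.209, adjusted p = 0.0291). In *ripr* the p passed but the size did not. The direct comparison of *cer7* with *rst1* gave -0.49 (adjusted p = 0.0839), so the difference between these mutants did not pass. The *rst1* call ended without the wild-type replicate 2 (0.96, adjusted p = 0.0116) or the wild-type replicate 3 (0.93, adjusted p = 0.0108), by size and p, and without *cer7-sail* replicate 3 (0.94, adjusted p = 0.0014), by size alone. It also ended with DESeq2 (0.99), without the filter (adjusted p = 0.0261) and with glmTreat (adjusted p = 0.791). *AT1G29940* overlaps *CAB1* over 108 bases on the opposite strand.

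**Figure D2:**
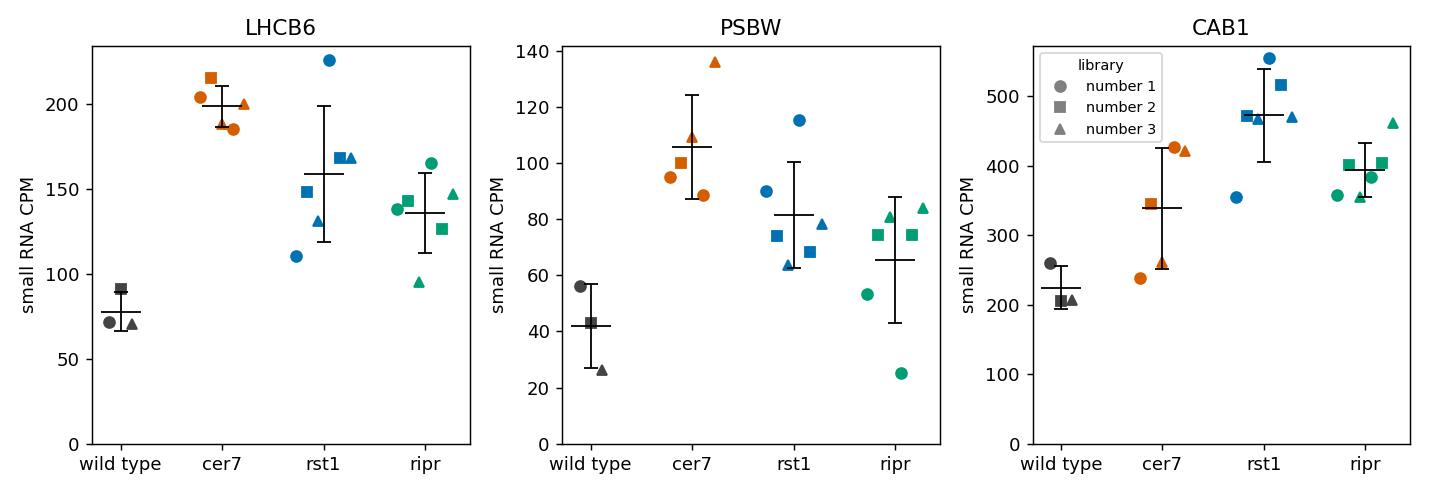
Small RNA CPM (y axis) of *LHCB6*, *PSBW* and *CAB1* in each library of the 4 groups (x axis), with the group mean and SD in black and the symbol giving the library number. *LHCB6* is at 70.5 to 90.9 CPM in the wild type and at 185.1 CPM or more in *cer7*; *CAB1* reaches 554.4 CPM in *rst1*.

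Counted over all tested photosynthesis genes, 2 of 33 showed no overlap, with all *cer7* libraries higher than all of Col-0 (*LHCB6* and *PSBW*), where 22.6% of all tested genes did. In *rst1* there were 3 (*CAB1*, *LHCB6* and *PSBW*), beside 15.8%, and in *ripr* 2 (*CAB1* and *LHCB6*), beside 16.2%. One gene, *PSBR* (*AT1G79040*), a photosystem II subunit, had every *ripr* library below the wild type, beside 8.26% of all tested genes. Its wild-type values were 96.9, 148.3 and 119 CPM, and its *ripr* values ran from 46.2 to 93.3 CPM with a log2 fold change of -0.77 (SE 0.293, adjusted p = 0.063, edgeR), which was not called.

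Among the 7 tested genes of the major trimeric antenna, log2 fold changes ran from -0.29 to 1.25 in *cer7*, from -0.07 to 1.08 in *rst1* and from -0.60 to 0.81 in *ripr*. *LHCB3* (*AT5G54270*), which marks the antenna trimers bound to the photosystem, had 60.3 ± 45.0 CPM (SD, n = 3) in the wild type and 142 ± 34.8 CPM (n = 5) in *cer7*, a log2 difference of 1.25 that did not pass (adjusted p = 0.0165, edgeR). The neighbours of *CAB1* had log2 fold changes in *rst1* of 0.35 (SE 0.559) for *CAB2* and 0.87 (SE 0.388) for *CAB3*, neither called. Wild-type *CAB2* libraries had 142.9, 67 and 57.3 CPM, an example of the wide spread between replicates of this family. *LHCB1.5* had 260.2, 186.6 and 158.6 CPM in the wild type and 322, 133, 152.7, 551.2 and 153.1 CPM in *cer7*. It ranged from 145.6 over 233.9 to 498.9 CPM in *rst1* and from 141.6 over 194.6 to 301.3 CPM in *ripr*, overlapping in all groups, with log2 fold changes of 0.37, 0.45 and 0.03. The 4 tested genes of the minor antenna had medians of 0.32 in *cer7*, 0.39 in *rst1* and close to 0 (-0.0096) in *ripr*, and only *LHCB6* of *LHCB4.1*, *LHCB4.2*, *LHCB5* and *LHCB6* was called.

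Of the photosystem I antenna genes *LHCA1* to *LHCA4*, none was called. *LHCA2* (*AT3G61470*) had 290.8, 277.4 and 290.8 CPM in the wild type and 296.1, 281.4, 220.9, 438.6 and 314.8 CPM in *cer7*. It ranged from 235.3 over 303.2 to 416.8 CPM in *rst1* and from 169.6 over 295.6 to 330.0 CPM in *ripr*, overlapping the narrow wild-type range in each mutant. *LHCA4* (*AT3G47470*) had 219.4, 119.6 and 96.9 CPM in the wild type and 178.3, 186.7, 120, 309.8 and 148.9 CPM in *cer7*. It ranged from 67.2 over 141.7 to 358.2 CPM in *rst1* and from 96.4 over 125.4 to 179.4 CPM in *ripr*. All groups of *LHCA4* overlapped, with log2 fold changes of 0.38, 0.23 and -0.13 in *cer7*, *rst1* and *ripr*.

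The 7 tested photosystem I subunit genes (*PSAD1*, *PSAF*, *PSAG*, *PSAK*, *PSAL*, *PSAN* and *PSAO*) had log2 fold changes from -0.17 to 0.65 in *cer7*, from -0.44 to 0.72 in *rst1* and from -0.82 to 0.15 in *ripr*, with none called. The photosystem II subunits, among them *PSBO1*, *PSBO2*, *PSBP1* and *PSBQ2* of the oxygen-evolving complex, had medians below 0 in each mutant, -0.22, -0.19 and -0.33. *PSBO2* (*AT3G50820*) had the lowest value of all in *ripr*, -1.22 (SE 0.465, adjusted p = 0.063, edgeR), from 72.9 ± 26.1 CPM (SD, n = 3) in the wild type to 31.0 ± 14.4 CPM (n = 6), and it was not called. *PSBQ2* had the lowest value in *cer7*, -0.64 (SE 0.451, adjusted p = 0.27).

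For carbon fixation, *RBCS1A* (*AT1G67090*), a Rubisco small subunit gene, had 280.6, 267.9 and 334.9 CPM in the wild type. In *cer7* it had 296.1, 253.3, 269.9, 720.2 and 365.8 CPM, the fourth being *cer7-sail* replicate 1, which stood apart. It ranged from 268.9 over 291.3 to 481.9 CPM in *rst1* and from 163.3 over 270.7 to 340.9 CPM in *ripr*. Its log2 fold changes were 0.36, 0.14 and -0.16 in *cer7*, *rst1* and *ripr*, none of them called. *RCA* (*AT2G39730*), Rubisco activase, had 285.7, 119.6 and 198.3 CPM in the wild type and 313.4, 176.5, 117.2, 579.4 and 217 CPM in *cer7*. It ranged from 93.5 over 213.1 to 392.3 CPM in *rst1* and from 157.3 over 171.9 to 233.2 CPM in *ripr*, again with overlap. *RBCS2B* differed by 0.77 on the log2 scale in *cer7* (SE 0.29, adjusted p = 0.04, edgeR) and was not called.

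The summed share of all counts that fell on the 41 genes did not separate the groups. It was 0.349 ± 0.0697% (SD, n = 3) in the wild type, 0.361 ± 0.158% (n = 5) in *cer7*, 0.410 ± 0.139% (n = 6) in *rst1* and 0.329 ± 0.0498% (n = 6) in *ripr*. The wild-type libraries had 0.424, 0.286 and 0.338%. The 2 highest were *rst1-3* replicate 1 with 0.684% (95% interval 0.652 to 0.718%, exact Clopper-Pearson, counting error only) and *cer7-sail* replicate 1 with 0.628% (0.6 to 0.657%). Without these 2, the means were 0.355% in *rst1* and 0.295% in *cer7*. Relative to the TMM-scaled totals, the wild-type libraries had 0.4398, 0.3157 and 0.3388%. On that scale *cer7-gabi* had 0.4801, 0.3663 and 0.3245% and *cer7-sail* 0.7717 and 0.3854%. Without *cer7-sail* replicate 1, the order of *cer7* and the wild type thus depended on the total used. Both *rst1-3* replicate 1 and *cer7-sail* replicate 1 carry the number 1. The library numbered 1 had the highest share of all counts in 6 of 7 genotypes and the lowest in the remaining one, *riprT*.

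**Figure D3:**
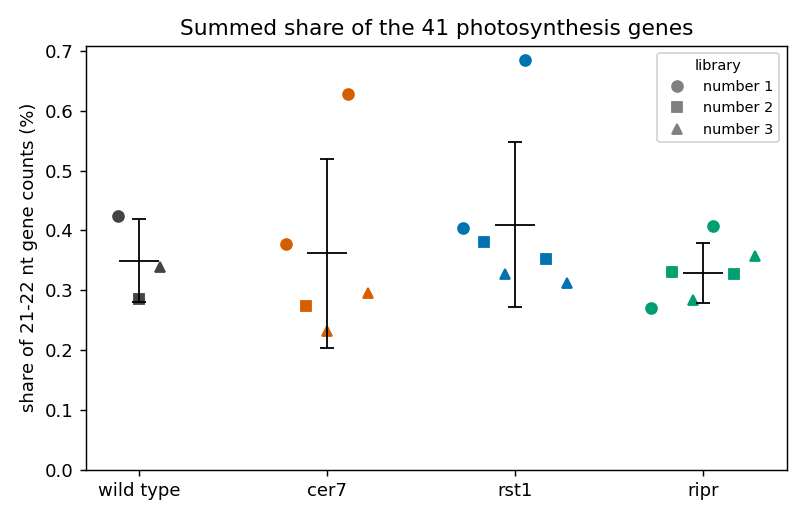
Share of all 21 to 22 nt gene counts that fell on the 41 photosynthesis genes (y axis, percent) in each library of the 4 groups (x axis), with mean and SD in black and the symbol giving the library number. The groups overlap, and the 2 highest points, 0.684% in *rst1* and 0.628% in *cer7*, are libraries numbered 1.

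The replicate number was therefore compared across genotypes, a comparison chosen after seeing the data. The 7 libraries numbered 1 were set against the 13 numbered 2 or 3 in edgeR, with genotype in the model. In the libraries numbered 1, 3 genes of all tested were called higher (0.103%), and all 3 were photosynthesis genes: *LHCB2.1*, *LHCB2.2* and *LHCB1.5* (*AT2G34420*). One gene was called lower, 0.0343%. It was *AT2G21660*, with a log2 difference of -1.18 (adjusted p = 0.00212), known as *GRP7*, an RNA-binding protein gene under control of the circadian clock, and it was named after its values were seen. Of the 33 photosynthesis genes 30 were above 0, with a median log2 difference of 0.52 beside 0.02 over all genes, and 22 had an unadjusted p below 0.05, beside 12.6% of all tested genes. What the number stands for in growth or harvest is not given in the sources used here.

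*LHCB2.1* ranged from 69.1 over 111 to 209 CPM in the 7 libraries numbered 1 and from 5.24 over 28.0 to 65.4 CPM in the other 13, without overlap. The log2 difference was 2.15 (SE 0.256, adjusted p = 7.29e-05, edgeR). *LHCB2.2*, its near-identical copy, ranged from 56.5 over 122 to 209 CPM against 8.18 over 36.7 to 70.4 CPM, with slight overlap and a difference of 1.78 (SE 0.279, adjusted p = 0.0019). Reads from identical stretches may be shared between these 2 genes, so their values are not independent. *LHCB1.5* ranged from 239 over 322 to 551 CPM against 133 over 157 to 239.5 CPM, with a difference of 1.01 (SE 0.134, adjusted p = 0.000207). Without *rst1-3* replicate 1 only *LHCB2.1* was called, since *LHCB2.2* then had an adjusted p of 0.0109 and *LHCB1.5* a difference of 0.93. The difference of *LHCB1.5* stood at the threshold, and it fell below 1, down to 0.90, without any one of 14 libraries and with DESeq2's size factors (0.97). *LHCB1.5* lies fully within the opposite-strand *AT2G08665*, which overlaps it over 1045 bases.

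The genes called in the mutants showed small differences by number. The log2 difference between number 1 and the others was -0.08 for *CAB1* (adjusted p = 0.807, edgeR), 0.07 for *LHCB6* (adjusted p = 0.889) and -0.13 for *PSBW* (adjusted p = 0.857). *CAB2*, next to *CAB1*, had 1.11 (adjusted p = 0.0277), *LHCB4.2* 1.37 (adjusted p = 0.0103) and *RCA* 0.78 (adjusted p = 0.0235), none past the threshold. Within the antenna family the copies thus had unequal values: *CAB1* ranged from 239 to 554 CPM in the libraries numbered 1 and from 206 to 517 CPM in the others. In libraries numbered 2 and 3 only, the median log2 fold change of the photosynthesis genes was 0.05 in *cer7*, 0.05 in *rst1* and 0.03 in *ripr*. Over all tested genes it was -0.03, 0.06 and 0.06. Of the 32 photosynthesis genes tested there, 3, 1 and 0 were called higher. The share of all tested genes called in this subset is not given here.

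**Figure D4:**
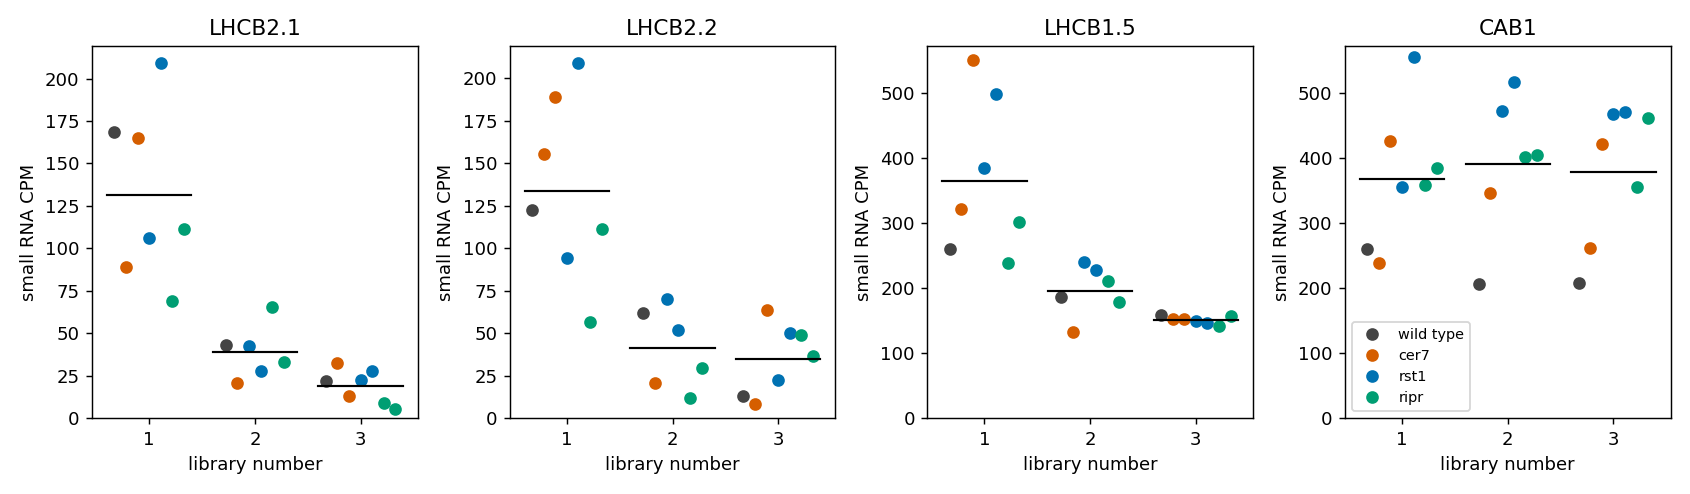
Small RNA CPM (y axis) of *LHCB2.1*, *LHCB2.2*, *LHCB1.5* and *CAB1* in libraries grouped by the replicate number of the labels (x axis), coloured by genotype, with the mean as a black line. For *LHCB2.1* the 7 libraries numbered 1 lie at 69.1 CPM or more and the other 13 at 65.4 CPM or less, while the means of *CAB1* lie close together.

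Between mutants no photosynthesis gene was called in either direction by edgeR, or by DESeq2. Of all tested genes, 2.5% were called between *cer7* and *rst1*, 2.95% between *cer7* and *ripr* and 0.617% between *rst1* and *ripr*. At an unadjusted p below 0.05, 12 of 33 genes were higher in *cer7* than in *ripr* (beside 23.1% of all tested genes in either direction), 2 were higher in *rst1* than in *ripr* (beside 6.24%) and 2 differed between *cer7* and *rst1*, 1 each way (beside 19.3%). Of the 33 genes, 31 were above 0 in *cer7* against *ripr*, with a median log2 difference of 0.52, and 31 in *rst1* against *ripr*, with a median of 0.36. Over all tested genes, 53.02% and 52.37% were above 0, with medians of 0.03 and 0.02. The 2 comparisons with *ripr* share its libraries. In libraries numbered 2 and 3 only, 20 and 21 of 32 were above 0. The medians were 0.12 and 0.09, beside -0.04 and 0.0025 over all tested genes.

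Between alleles of one gene, again 0 of the 33 genes were called by edgeR or DESeq2. Over the whole table the shares called were 0.343% for *cer7-gabi* against *cer7-sail*, 0.206% for *rst1-2* against *rst1-3* and 0% for *riprT* against *riprC*. At an unadjusted p below 0.05 there were 6, 2 and 0 photosynthesis genes of 33, beside 15.3%, 7.44% and 2.67% of all tested genes. Of the 33 genes, 3 were higher in *cer7-gabi* than in *cer7-sail* and 3 in *rst1-2* than in *rst1-3*, beside 44.41% and 46.47% of all tested genes. The median log2 differences of the 33 genes were -0.51 and -0.39, beside -0.08 and -0.04 over all tested genes. The libraries *cer7-sail* replicate 1 and *rst1-3* replicate 1 belong to the alleles with the higher values, and their part in these differences was not tested. In *riprT* against *riprC* 7 of 33 genes were above 0, beside 50.17% of all tested genes, with a median of -0.28.

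The change was set beside the small RNA level. Split by the mean CPM over the 3 wild-type libraries, the 16 photosynthesis genes with higher levels had a median log2 fold change of 0.36 for *cer7*, 0.15 for *rst1* and -0.18 for *ripr*, and the 17 with lower levels 0.38, 0.36 and -0.14. Split by the mean over all 20 libraries, the medians were 0.37 and 0.31 for *cer7*, 0.20 and 0.20 for *rst1*, and -0.12 and -0.20 for *ripr*, so that the order depended on the level used. Each level shares libraries with the fold change, and the split is a description only.

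**Figure D5:**
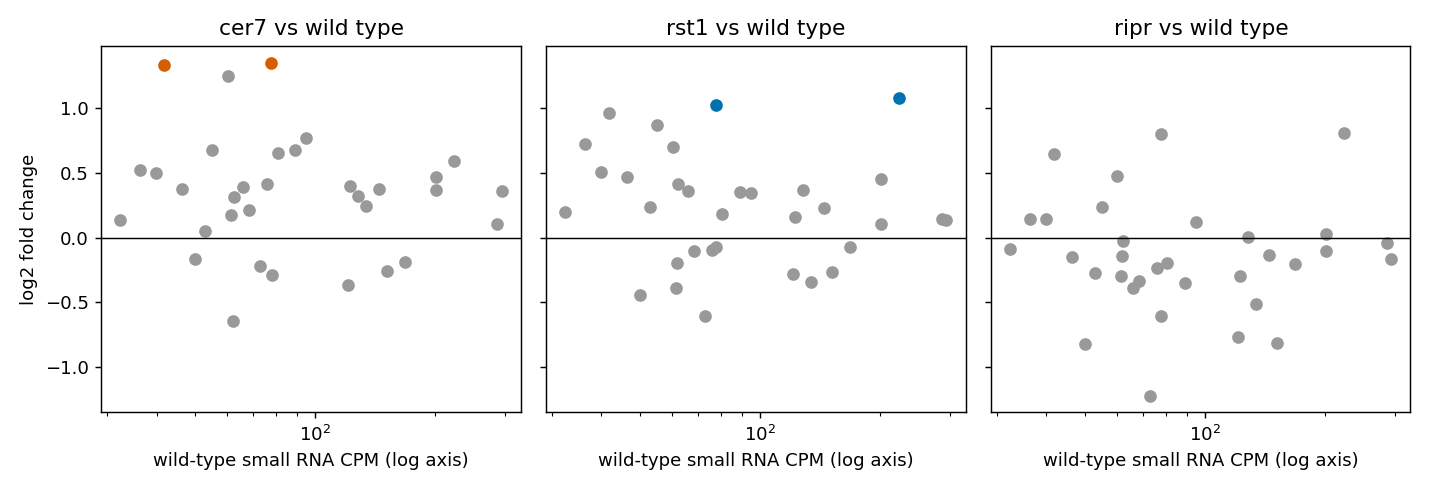
Log2 fold change against the wild type (y axis) and mean small RNA CPM in the wild type (x axis, log scale) of the 33 tested photosynthesis genes in *cer7*, *rst1* and *ripr*, with called genes coloured. In *cer7* the called genes *LHCB6* and *PSBW* lie at 77.6 and 41.9 CPM in the wild type, below *CAB1* at 224 CPM.

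Other genes of photosynthesis were counted from lists of the Calvin cycle, chlorophyll synthesis, electron transport, photorespiration, further photosystem subunits and regulators. Of 64 genes 28 were tested, and 1 was called, the same gene in *cer7* and in *rst1*. It was *CHLH* (*AT5G13630*), the large subunit of the magnesium chelatase that opens chlorophyll synthesis, with 72.9 ± 34.2 CPM (SD, n = 3) in the wild type, 186 ± 111 CPM (n = 5) in *cer7* and 207 ± 51.7 CPM (n = 6) in *rst1*. Its log2 fold change was 1.34 in *cer7* (adjusted p = 0.00814, edgeR), 1.51 in *rst1* (adjusted p = 0.00529) and 1.16 in *ripr* (adjusted p = 0.029, not called). The medians of the 28 genes were 0.30, 0.08 and -0.03. Cytosolic ribosomal protein genes, another group known for abundant mRNAs, had 61 of 206 genes tested, with 14 higher in *cer7*, 9 in *rst1* and 6 in *ripr* and none lower. These were 23%, 14.8% and 9.84% of those tested, beside 17.4%, 9.95% and 9.91% of all tested genes, with median log2 fold changes of 0.80, 0.47 and 0.16. The wild-type median of the 206 genes was 10.8 CPM. A gene low in the wild type can pass the filter through a mutant group where it is high. The direction of these calls and medians may thus be partly set by the filter.

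The region upstream of the start was searched on both strands over 200 bases. The G-box CACGTG, a binding site of bZIP and bHLH factors of the light response, was found in 7 of the 41 genes (17.1%) and in 5.74% of 26708 genes. The I-box GATAAG was found in 10 (24.4%) and in 9.9%. The evening element AAAATATCT, also searched, was found in 0 of the 41 genes and in 1.95% of all genes. Neither *CAB1* nor *PSBW* had a G-box or an I-box. The sequence upstream of *LHCB6*, the gene called in both *cer7* and *rst1*, is shown from RefSeq, TAIR10.1, chr1:5447881-5448080 on the minus strand, with the G-box and the I-box in capitals.
*LHCB6*: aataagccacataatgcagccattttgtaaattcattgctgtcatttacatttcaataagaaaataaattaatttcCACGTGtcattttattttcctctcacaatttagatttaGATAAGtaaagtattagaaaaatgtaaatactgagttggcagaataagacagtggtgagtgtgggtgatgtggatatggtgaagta
A match describes the letters only.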

How the data were processed

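Small RNAs of 21 and 22 nt were measured in 20 libraries of flower buds. The authors trimmed reads with cutadapt 1.18, aligned them to TAIR10 without mismatches using ShortStack in its unique mode and counted them per gene. The deposited table holds raw counts for each library, not normalized, and 0 of its columns were left out. The photosynthesis genes and all gene lists were chosen with earlier results of these data known.

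Counts were tested with edgeR 4.0.16 in R 4.3.3 (TMM factors, filterByExpr with a minimum count of 10 and a minimum total of 15, quasi-likelihood F test, 20 libraries in 4 groups), with Benjamini-Hochberg adjustment over 2916 genes. Alleles were pooled by mutated gene, as in the study, and compared in a fit of 7 groups. Genes were called at an adjusted p below 0.01 and a log2 fold change beyond 1. The procedure was tested on simulated data. Values are given for each library for photosynthesis genes called in a mutant comparison and for the 6 with the highest mean CPM. Genes of the other photosynthesis lists are named where called against the wild type. Alternatives were other normalizations, filters, thresholds and sample sets, the replicate block, DESeq2 1.42.0 and each library left out. Library totals were 192747 to 522464 counts, which limits genes with few counts to large changes. Overlaps, sequences and 21 nt windows came from RefSeq on TAIR10.1, where 26718 of 27415 identifiers matched. Levels in replicates measure the spread between pools of plants.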

Additional observations from a re-analysis of the deposited data

Results flagged for a closer look

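A library far from the others of its group was found in 4 of 27 sets of values. Chance gives about 1 in 20 for a single set. The sets share libraries and the summed share holds the same genes, so the 4 cannot be weighed against that rate. They came from *cer7-sail* replicate 1 and *rst1-3* replicate 1 only. *RBCS1A* (*AT1G67090*) reached 720.2 CPM in *cer7-sail* replicate 1, with the next *cer7* library at 365.8 CPM. In *rst1-3* replicate 1 it reached 481.9 CPM, with the next *rst1* library at 324 CPM. *LHCA4* (*AT3G47470*) reached 358.2 CPM in *rst1-3* replicate 1, next 172.6 CPM. The summed share of the 41 genes was 0.6843% in *rst1-3* replicate 1, next 0.4033%. Both libraries carry the number 1.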

How the results depend on the processing

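The count of photosynthesis genes called higher in *cer7*, 2, was 1 with library size alone and 1 without the filter on low counts, and 0 with glmTreat. It was 1 to 3 with single libraries left out. In *rst1*, also 2, it was 0 with DESeq2, 0 without the filter, 1 with only the groups compared, 0 with glmTreat, 1 in libraries numbered 2 and 3 only (added after seeing the data) and 0 to 2 with single libraries left out. Shares over all tested genes are not given here for these alternatives. The labels do not say that a number pairs samples, and the comparisons with the wild type were not treated as paired. The 17 pairs of a wild-type and a mutant library with the same number had deviations correlated between -0.0515 and 0.0908. All but the lowest of these correlations were above 0. Over all genotypes 10 of 57 such pairs were above 0.1 (median 0.0582, against -0.0259 for different numbers) and 17 of 20 libraries correlated best with their own number, a hint of shared deviations from the data. With the replicate block the counts called higher were 3, 2 and 0 in *cer7*, *rst1* and *ripr*, and the *cer7* median was 0.21 on the log2 scale.

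The median log2 fold change of the tested photosynthesis genes in *cer7*, 0.37, was 0.087 with library size alone, 0.20 with DESeq2, 0.049 in libraries numbered 2 and 3 only and 0.058 (without *cer7-sail* replicate 1) to 0.51 with single libraries left out. In *rst1* the median, 0.20, was 0.095 with DESeq2, 0.048 in libraries numbered 2 and 3 only and -0.068 (without *rst1-3* replicate 1) to 0.35. In *ripr* the median, -0.15, was 0.028 in libraries numbered 2 and 3 only and -0.30 to 0.037 (without wild-type replicate 1). The summed share in *ripr* without the 5 LHCB1 genes was 0.258%. Between number 1 and the others, the count of 3 was 1 to 4 and the median 0.38 to 0.66 with single libraries left out.

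Signs of genes near 0, none of them called, turned. With library size alone and DESeq2 *LHCA2* in *cer7* was -0.175 and -0.030, with DESeq2 *LHCB1.5* in *ripr* was -0.049, and without the filter *LHCA2* in *ripr* was 0.019. In libraries numbered 2 and 3 only, *RBCS1A*, *LHCA2* and *LHCB1.5* in *cer7* were -0.018, -0.049 and -0.22, *RBCS1A* in *rst1* was -0.0083, and *LHCA2*, *RCA* and *LHCA4* in *ripr* were 0.062, 0.17 and 0.15. With single libraries left out, *LHCA2* and *LHCB1.5* in *cer7* ran from -0.037 to 0.22 and from -0.029 to 0.55. *RBCS1A*, *RCA* and *LHCA4* in *rst1* ran from -0.014 to 0.20, from -0.24 to 0.43 and from -0.13 to 0.64. *LHCA2*, *LHCB1.5*, *RCA* and *LHCA4* in *ripr* ran from -0.19 to 0.081, from -0.20 to 0.25, from -0.40 to 0.23 and from -0.44 to 0.29. The causes were not tested. Counts of 6 to 11 per wild-type library limit *PSBW*.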
